A study of Mus musculus with 12 samples.

Results

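The genes of MHC class I antigen presentation were followed in 4T1 mammary tumours of mice that received microRNA-loaded extracellular vesicles (EVs). The 10 genes were taken by symbol: the heavy chains H2-K1, H2-D1 and H2-T23, the light chain B2m, the peptide transporter subunits Tap1 and Tap2, the loading factor Tapbp, the transactivator Nlrc5, and the immunoproteasome subunits Psmb8 and Psmb9. All 10 were found among the 35944 annotated genes and all passed the filter on low counts, which 15485 genes passed. No measured value was used to choose them, but they were proposed with earlier results from these tumours in view. Per the labels and methods, female BALB/c mice aged 6 to 8 weeks received 100000 subcutaneous cells of 4T1, a mammary carcinoma line of the same strain, and EVs were injected beside the tumour from day 5 at 3 µg every 2 days until RNA was harvested on day 21. The EVs came from MS-1 cells, a mouse endothelial line, and were electroporated with a mimic. This was the nematode miRNA cel-miR-67 in ctrl, and miR-142-5p or miR-222-3p or else miR-183-5p in the other groups, so ctrl tumours also received endothelial EVs and a mimic. Each of the 4 groups held 3 tumours, numbered 1 to 3. Where 3 changes against ctrl are given together, the miR-142-5p group comes first, the miR-183-5p group next and the miR-222-3p group last. The tumours all derive from 1 cell line and were sequenced whole, so each library mixes carcinoma cells with the host's immune, stromal and vascular cells.

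The libraries held 20285968 to 27021401 estimated reads, and carcinoma markers were present in each of them, with Krt18 at 632 to 1046 TPM (a transcript abundance per unit of length, scaled to a fixed sum per library) and Epcam at 69.7 to 125 TPM. In miR-142-5p tumour 3, Ptprc, the CD45 gene carried by all leukocytes, was at 102 TPM against 29.3 to 62.3 TPM in the other 11 tumours, and the 4 B cell markers summed to 419 TPM against 1.02 to 2.79 TPM. In 1 tumour of the miR-183-5p group the 3 skeletal muscle markers summed to 169 TPM. The libraries also differed in how reads were shared between the mitochondrial gene mt-Co2 and its nuclear copy Gm28661. The copy held over 1% of the reads of the pair in 8 libraries and less in the other 4, which were miR-183-5p tumour 3 and the 3 miR-222-3p tumours. No ctrl library was in that smaller set, so the miR-222-3p group and the set cannot be told apart.

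MHC class I molecules show peptides from inside the cell to CD8 T cells. Proteasomes cut proteins into peptides, the Tap1 and Tap2 transporter moves them into the endoplasmic reticulum, and tapasin (Tapbp) holds an empty heavy chain and B2m next to the transporter until a peptide binds. Interferon-gamma acts in part through Irf1 to raise most of these genes together, and exchanges the constitutive proteasome subunits for Psmb8 and Psmb9. Nlrc5 is a transactivator that binds the promoters of class I genes with the RFX and NF-Y factors. Tumour cells that lower these genes become harder for CD8 T cells to recognise.

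To show which targets the loaded miRNAs could pair with, their mature sequences are given from RefSeq on GRCm38.p6, 5′ to 3′, with the seed (bases 2 to 8) in capitals. RefSeq names the mouse form of miR-142-5p miR-142a-5p.
miR-142a-5p: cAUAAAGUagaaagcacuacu
miR-183-5p: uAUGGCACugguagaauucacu
miR-222-3p: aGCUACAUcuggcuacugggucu
The 3 seeds differ from each other. They were searched for in the annotated 3′ untranslated region (UTR) of the most-read protein-coding transcript of each gene that has one, as matches to bases 2 to 8, with or without the adenine opposite base 1. Of the 30 pairs of gene and miRNA, 2 had a match, shown here on the transcript strand with the 7 matched bases in capitals.
Tapbp, miR-222-3p, chr17:33928331-33928351 on the plus strand: tctctctATGTAGCcttggct
Psmb9, miR-142-5p, chr17:34182045-34182065 on the minus strand: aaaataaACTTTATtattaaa
Both matches lacked the adenine opposite base 1. H2-K1, H2-D1, H2-T23, B2m, Tap1, Tap2, Nlrc5 and Psmb8 had no match to any of the 3 seeds. Among 20998 genes with a 3′ UTR, taken as the longest one annotated, a match was present in 14.4% with the seed of miR-142-5p, in 8.82% with that of miR-183-5p and in 9.46% with that of miR-222-3p. The match in Psmb9 lay at base 166 of a UTR of 237 bases and that in Tapbp at base 187 of 1140. A match is a run of letters and was not tested as a target site.

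The stretches before the start sites of B2m and H2-K1 are shown because these genes encode the light chain and a classical heavy chain that pair with each other, and because no annotated exon covers them. Both run 5′ to 3′ on the strand of the gene, from base -150 to base -11 of the RefSeq start, on GRCm38.p6, with the motifs found in capitals.
B2m, chr2:122147537-122147676 on the plus strand: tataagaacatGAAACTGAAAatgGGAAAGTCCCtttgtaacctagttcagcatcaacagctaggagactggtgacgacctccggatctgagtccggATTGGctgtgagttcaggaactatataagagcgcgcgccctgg
H2-K1, chr17:34000358-34000497 on the minus strand: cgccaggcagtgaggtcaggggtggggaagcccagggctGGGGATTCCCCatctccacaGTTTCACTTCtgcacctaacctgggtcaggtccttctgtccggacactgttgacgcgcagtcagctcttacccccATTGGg
In B2m the capitals mark, in order, an interferon-stimulated response element core (GAAA, any 2 bases, GAAA), a kappaB-like element (GGG, any 2 bases, TTTCC, on the opposite strand) and a CCAAT box (CCAAT, on the opposite strand), the letters that NF-Y binds. These motifs start at bases -139, -126 and -53. In H2-K1 they mark a palindromic kappaB-like element (GGGG, any base, TTCCCC) at base -111, another form of the response element (GAA, any base, TGAAAC) on the opposite strand at base -91 and a CCAAT box on the opposite strand at base -16. The palindrome and that other form were added after these stretches had been read. RefSeq windows of 250 bases before to 50 after the start were at hand for 8 of the 10 genes, with none for Tap2 and Nlrc5. On both strands, the response element core was found in 2 of the 8 (B2m and H2-T23) and in 3.44% of 32851 windows, and the GGG, any 2 bases, TTTCC element in B2m alone of the 8 and in 1.63%. CCAAT was found in 7 of the 8 and in 37.4% of windows, and the gamma-activated site TTCNNNGAA in Psmb8 alone of the 8 and in 8.30%. The palindrome and the other form of the response element were each found in H2-K1 and H2-D1, and in 0.134% and 0.405% of windows. These letters describe the windows and no binding was measured.

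The genes were all strongly expressed, but over a wide range of levels. B2m had the highest mean, 5724 TPM ± 606 (SD, n = 12), and ranked between 9 and 12 among all genes in the tumours. H2-K1 followed at 2949 TPM ± 356 and H2-D1 at 2114 TPM ± 195. A step down came Psmb8 at 553 TPM ± 65.9, H2-T23 at 480 TPM ± 56.5, Tapbp at 286 TPM ± 21.4 and Psmb9 at 245 TPM ± 44.5. The lowest were Nlrc5 at 169 TPM ± 22.4, Tap1 at 150.0 TPM ± 23.5 and Tap2 at 116 TPM ± 14.5. The ranges over the 12 tumours did not overlap between B2m and H2-K1, H2-K1 and H2-D1, H2-D1 and Psmb8, or H2-T23 and Tapbp. The ranges of the other neighbours in this order overlapped, although Psmb8 was above H2-T23 and Tap1 above Tap2 in each of the 12 tumours. Nlrc5 was above Tap1 in 9 of 12. Together the 10 genes summed to between 11105 and 14935 TPM per tumour.

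**Figure D1:**
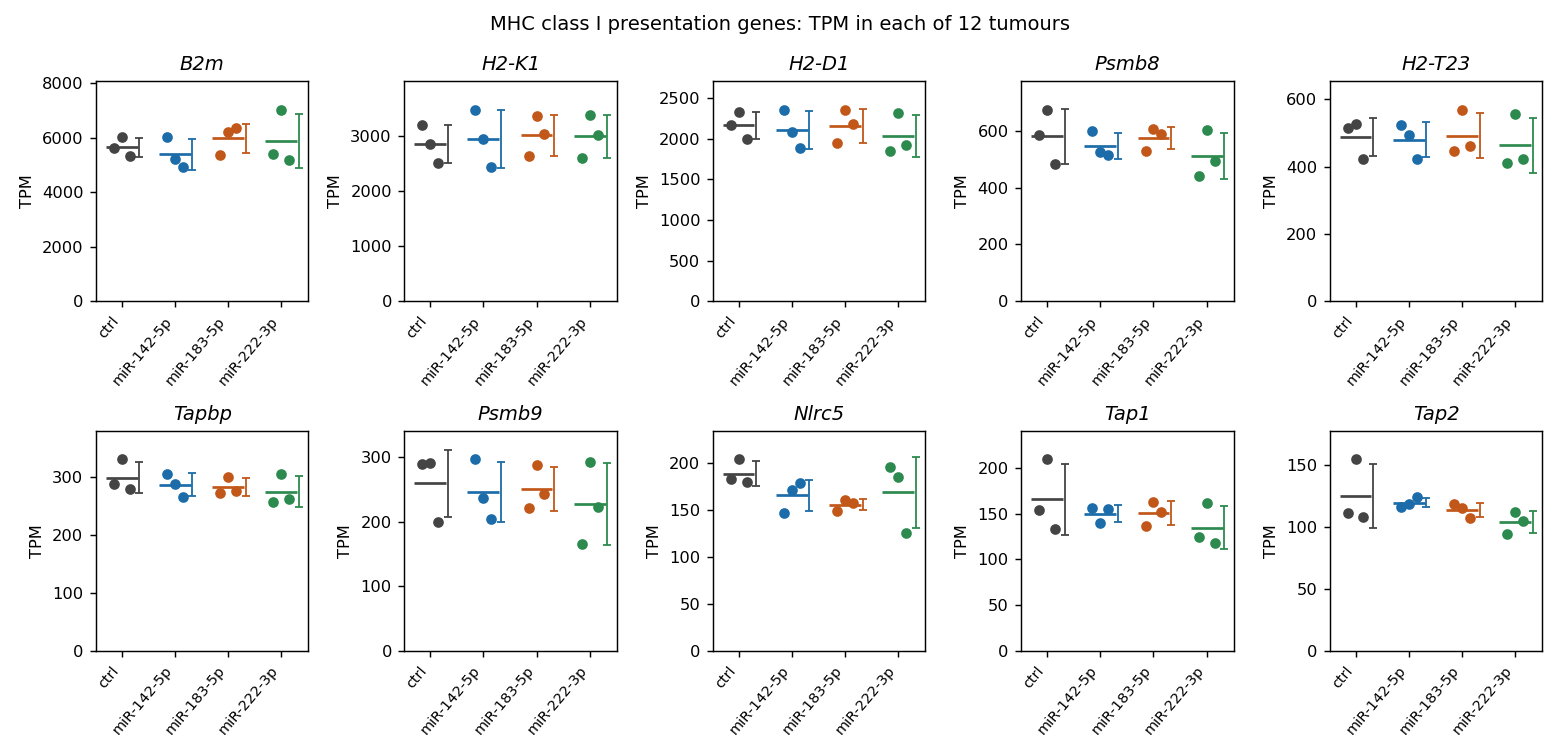
TPM of each gene (y axis, starting at 0 and scaled to the gene) in the 12 tumours, by group (x axis). Points are tumours 1 to 3 from left to right, horizontal lines are group means and error bars are SD (n = 3). The means of the 4 groups differ by 1.06-fold (H2-K1) to 1.23-fold (Tap1) from lowest to highest.

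The level of some genes rested on transcripts that the annotation does not call protein-coding. For H2-K1, 76.4% of the estimated reads were assigned to transcripts annotated as retaining an intron (range over tumours 72.7% to 78.3%) and 22.7% to protein-coding ones. A single transcript, H2-K1-215, of 457 bases at the 3′ end of the gene (chr17:33996106-33996674), held 58.9% of the reads and 82.4% of the TPM. With protein-coding transcripts only, the mean of H2-K1 in ctrl was 246 TPM and not 2849 TPM, below H2-T23 (402 TPM) and Psmb8 (305 TPM) counted in the same way. Retained-intron transcripts also held most reads of Tap2 (74.6%, on 1 transcript) and of Psmb8 (58.6%, over 4 transcripts). The share of such transcripts was 37.2% for Nlrc5, 22.7% for Tap1 and 5.57% for H2-D1. B2m has a single annotated transcript, which is protein-coding. The H2-K1-215 share did not separate the groups, at 59.1% ± 1.07 in ctrl, 58.8% ± 1.28 with miR-142-5p-EVs, 59.0% ± 2.91 with miR-183-5p-EVs and 58.5% ± 0.265 with miR-222-3p-EVs (SD, n = 3).

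**Figure D2:**
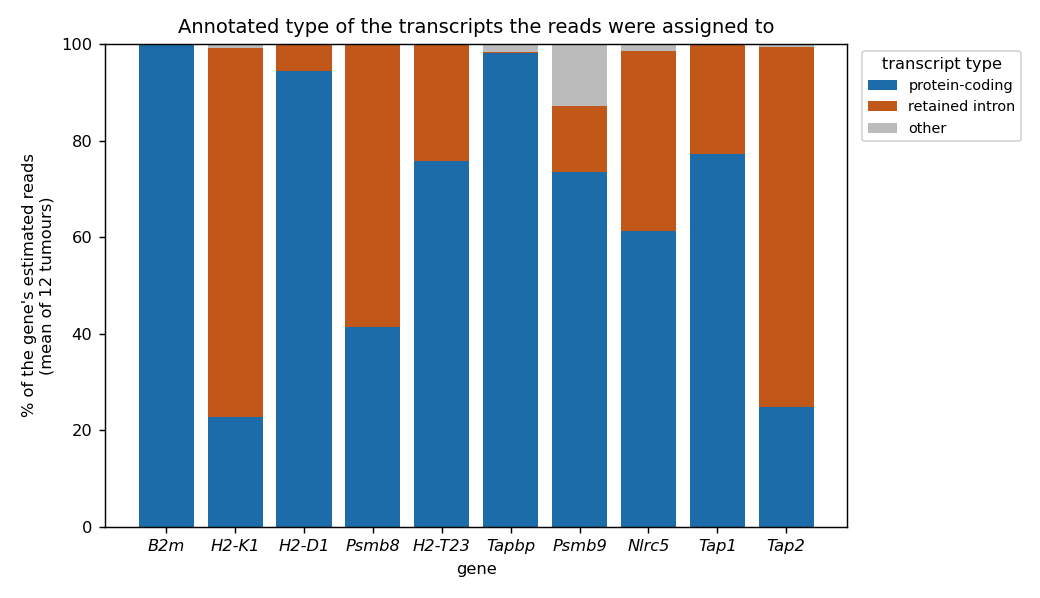
Share of each gene's estimated reads (y axis, mean of 12 tumours, %) assigned to protein-coding, retained-intron or other annotated transcripts, with genes on the x axis ordered by TPM. H2-K1 and Tap2 have 22.7% and 24.7% of their reads on protein-coding transcripts, and B2m has 100%.

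Reads of the heavy chains could also be shared between genes. Of the 31-base words in the most-read transcript, 48.4% of those of H2-T23 and 27.5% of those of H2-D1 also occur in transcripts of other genes. The genes sharing the most words were H2-T-ps with H2-T23 (25.5%) and H2-K1 with H2-D1 (12.9%). The share was 4.68% for H2-K1-215, 1.51% to 3.20% for Tap1, Tap2 and Tapbp, and 0% for B2m, Nlrc5, Psmb8 and Psmb9. BALB/c mice carry other class I alleles than the C57BL/6 reference and an additional gene, H2-L, that the annotation lacks, and reads of H2-L have to fall elsewhere or go unassigned. The values of H2-K1, H2-D1 and H2-T23 are therefore uncertain between family members, and the part of the alleles in them was not tested.

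To ask whether a loaded miRNA altered class I presentation, each group was compared with ctrl. None of the 10 genes differed from ctrl in any of the 3 comparisons (DESeq2, adjusted p over all genes, threshold 0.05), and none had an unadjusted p under 0.05. Among all 15438 genes with an adjusted p, 1 was called with miR-142-5p-EVs (0.00648%), 0 with miR-183-5p-EVs (0%) and 4 with miR-222-3p-EVs (0.0259%). At an unadjusted p under 0.05 the shares over all genes were 3.58%, 3.21% and 2.31%. With edgeR, 0 of the 10 genes and 0 of all genes were called in each of the 3 comparisons. The fitted changes of the 10 genes lay between -0.30 and 0.10 on the log2 scale, with standard errors of 0.14 to 0.26. Their 95% intervals together spanned 0.611-fold to 1.41-fold, so larger changes than these lie outside every interval. In bulk tumours, fewer cells of a type and less RNA per cell cannot be told apart.

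**Figure D3:**
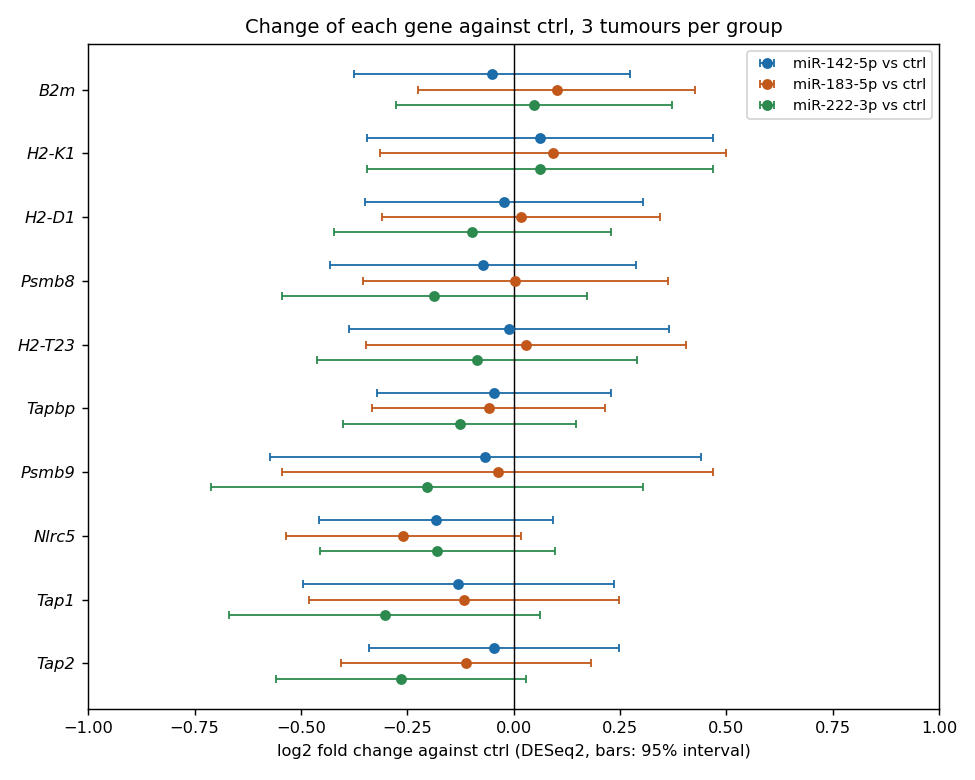
Log2 fold change of each gene against ctrl (x axis) from the DESeq2 fit with 3 tumours per group, with genes on the y axis. Points are estimates and bars are 95% intervals. Each of the 30 intervals includes 0, and the estimates run from -0.30 (Tap1, miR-222-3p) to 0.10 (B2m, miR-183-5p).

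The heavy chains bind the peptide and are what the T cell receptor meets. H2-K1 (chr17:33996017-34000347), a classical heavy chain, was at 3189, 2850 and 2507 TPM in ctrl tumours 1 to 3, at 3471, 2935 and 2429 with miR-142-5p-EVs, at 2631, 3362 and 3033 with miR-183-5p-EVs and at 2598, 3380 and 3007 with miR-222-3p-EVs. The 4 groups overlapped, and the lowest and the highest tumour were both in the miR-142-5p group. Its log2 fold change against ctrl was 0.06 (SE 0.21), 0.09 (SE 0.21) and 0.06 (SE 0.21). H2-D1 (chr17:35262730-35267499), the other classical heavy chain, was at 2163, 2333 and 1993 TPM in ctrl, at 2349, 2080 and 1882 with miR-142-5p-EVs, at 1942, 2355 and 2179 with miR-183-5p-EVs and at 1849, 2321 and 1925 with miR-222-3p-EVs. All 4 groups again covered much the same range, and the fitted changes were -0.02, 0.02 and -0.10 (SE 0.17 each).

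H2-T23 (chr17:36029773-36032855) encodes Qa-1, a nonclassical chain that presents leader peptides of other class I molecules to receptors of NK cells. It was at 514, 526 and 423 TPM in ctrl, at 522, 494 and 421 with miR-142-5p-EVs, at 447, 568 and 461 with miR-183-5p-EVs and at 410.3, 555 and 422 with miR-222-3p-EVs. Its changes of -0.01, 0.03 and -0.09 (SE 0.19 each) were smaller than their standard errors.

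B2m (chr2:122147686-122153083), the light chain without which heavy chains do not reach the surface, was at 5616, 6013 and 5330 TPM in ctrl and at 6018, 5226 and 4931 with miR-142-5p-EVs. It was at 5366, 6225 and 6339 TPM with miR-183-5p-EVs and at 5409, 7023 and 5192 with miR-222-3p-EVs, the last group holding the highest tumour of all. The fitted changes were -0.05, 0.10 and 0.05 (SE 0.17 each), again with overlapping groups.

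The transporter subunits had the lowest point estimates of the 10 genes with miR-222-3p-EVs, whereas Nlrc5 had the lowest in the other comparisons with ctrl. Tap1 (chr17:34187553-34197225) was at 153, 209 and 134 TPM in ctrl, at 156, 139 and 155 with miR-142-5p-EVs, at 136, 163 and 152 with miR-183-5p-EVs and at 125, 161 and 118 with miR-222-3p-EVs. Tap2 (chr17:34203527-34216321) was at 112, 155 and 109 TPM in ctrl, at 117, 119 and 124 with miR-142-5p-EVs, at 119, 115 and 108 with miR-183-5p-EVs and at 94.9, 113 and 105 with miR-222-3p-EVs. In both genes ctrl tumour 2 stood above the other 11 tumours, and each of the other groups overlapped ctrl. With miR-222-3p-EVs the log2 fold changes were -0.30 (SE 0.19) for Tap1 and -0.27 (SE 0.15) for Tap2, each with an adjusted p of 0.999965 in DESeq2. Without ctrl tumour 2 they were -0.13 and -0.11, and without ctrl tumour 3 they were -0.47 and -0.39. For the other miRNAs, in the order above, the changes were -0.13 and -0.12 (SE 0.19) for Tap1, and -0.05 and -0.11 (SE 0.15) for Tap2.

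Tapbp (chr17:33915899-33929292) encodes tapasin, which edits the peptides that class I molecules carry. It varied least of the 10 genes, at 288, 331 and 280.2 TPM in ctrl, 306, 289 and 266 with miR-142-5p-EVs, 273, 301 and 276 with miR-183-5p-EVs and 258, 305 and 263 with miR-222-3p-EVs. Its coefficient of variation over the 12 tumours was 7.48%, against 18.1% for Psmb9, the most variable. Its changes were -0.05, -0.06 and -0.13 (SE 0.14 each), the last in the group whose miRNA has the seed match shown above.

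Psmb8 (chr17:34197721-34201454) and Psmb9 (chr17:34181987-34187764) encode the interferon-inducible catalytic subunits LMP7 and LMP2. Psmb8 was at 583, 673 and 482 TPM in ctrl, at 599.8, 524.5 and 515 with miR-142-5p-EVs, at 529, 605 and 588 with miR-183-5p-EVs and at 442, 601 and 492 with miR-222-3p-EVs. Psmb9 was at 288, 290.3 and 199 TPM in ctrl, at 296, 236 and 204 with miR-142-5p-EVs, at 221, 288 and 242 with miR-183-5p-EVs and at 166, 292 and 222.4 with miR-222-3p-EVs. The groups overlapped for both genes, and miR-222-3p tumour 1 was the lowest tumour for each. Against ctrl, the changes of Psmb8 were -0.07, 0.00 and -0.19 (SE 0.18 each) and those of Psmb9 -0.07, -0.04 and -0.20 (SE 0.26 each). The change of Psmb9 with miR-142-5p-EVs, whose seed has a match in its UTR, was thus within 1 standard error of 0. Tap1 and Psmb9 lie on opposite strands and overlap at their outermost annotated starts, where the spans of both genes share 212 bases. The library kit marks strand, but whether the quantification used it is not given in the sources used here.

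Nlrc5 (chr8:94434356-94527272), the class I transactivator, was below the ctrl mean in every tumour of the other 3 groups by normalised count, whereas by TPM miR-222-3p tumour 1 was above it. It was at 182.6, 203 and 179 TPM in ctrl, at 147, 171 and 178 with miR-142-5p-EVs, at 149, 160 and 157 with miR-183-5p-EVs and at 195, 184.3 and 125 with miR-222-3p-EVs. In normalised counts, the 3 miR-183-5p tumours (5943, 6651 and 6404) did not overlap the 3 ctrl tumours (7973, 7982 and 6780), as did 9.2% of all genes in that comparison. The log2 fold change was -0.26 (SE 0.14, 95% interval -0.53 to 0.02, DESeq2 adjusted p 0.999999). With the EVs of the other miRNAs it was -0.18 (SE 0.14 in both), with groups that overlapped ctrl in normalised counts. By TPM the miR-142-5p tumours also lay below ctrl, but narrowly, with their highest at 177.9 against a lowest of 179.2 in ctrl. The share of all genes without overlap was not computed by TPM. Retained-intron transcripts held a mean of 68.8% of the TPM of Nlrc5, so its TPM rests mostly on them. In normalised counts no other member had non-overlapping groups against ctrl, where the share over all genes was 6.08% for miR-142-5p and 5.52% for miR-222-3p. The 3 comparisons share the ctrl tumours, so their agreement in sign is not independent.

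The miRNA groups were then compared with each other. None of the 10 genes was called (DESeq2, 0 of 10 at an unadjusted p under 0.05 in each comparison, and 0 with edgeR), where the share of all genes called was 0.0518% between the miR-183-5p and miR-142-5p groups, 0.0324% between the miR-183-5p and miR-222-3p groups and 0.0389% between the remaining pair. The fitted differences of the 10 genes ran from -0.08 to 0.15 for miR-183-5p minus miR-142-5p on the log2 scale, from -0.08 to 0.19 for miR-183-5p minus miR-222-3p, and from -0.10 to 0.22 for miR-142-5p minus miR-222-3p. Tap2 was higher in the 3 miR-142-5p tumours (4686, 4524 and 4361 normalised counts) than in the 3 miR-222-3p tumours (3326, 4221 and 4118), by 0.22 (SE 0.15). It was the only 1 of the 10 without overlap in that comparison, where 6.23% of all genes had none. The other 2 comparisons had no such member, against 12.4% of all genes where miR-183-5p was set against miR-142-5p and 9.07% where it was set against miR-222-3p.

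The rest of the pathway was read from lists that were chosen with earlier results of these tumours known. No gene of these lists passed the threshold against ctrl in any group. Among the other class I heavy chains, 14 of 16 annotated genes were tested, with medians of -0.02, -0.00 and -0.04, against -0.00, -0.01 and -0.01 over all genes tested. Without ctrl tumour 3 the medians were -0.09, -0.11 and -0.15, and without ctrl tumour 2 they were 0.02, 0.07 and -0.04. The extremes were the neonatal Fc receptor Fcgrt at 0.33 (SE 0.30) with miR-142-5p-EVs and -0.42 (SE 0.30) with miR-183-5p-EVs, H2-T24 at -0.24 and -0.36 (SE 0.28 each) in the first and last comparison, H2-T22 at 0.19 (SE 0.19) with miR-183-5p-EVs and the lipid-presenting Cd1d1 at 0.06 (SE 0.24) with miR-222-3p-EVs. The medians of the 10 presentation genes themselves were -0.05, -0.02 and -0.15, with 9, 5 and 8 of 10 below 0. Over all genes tested 51.2%, 52.7% and 52.0% were below 0, and signs of genes measured in the same tumours are not independent. These medians moved with single tumours of either group. Without ctrl tumour 1 they were 0.00, 0.07 and -0.07, without ctrl tumour 2 they were 0.02, 0.06 and -0.08, and without ctrl tumour 3 they were -0.16, -0.14 and -0.23. The first median was -0.15 without miR-142-5p tumour 1 and 0.05 without tumour 3, the next was 0.06 without miR-183-5p tumour 1 and -0.11 without tumour 2, and the last was -0.02 without miR-222-3p tumour 1 and -0.25 without tumour 2.

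Of the 12 genes for peptide supply and loading, 0 were called. Their medians were -0.06, -0.04 and -0.14, and without ctrl tumour 2 they were 0.00, 0.05 and -0.05. The peptidase Thop1, which destroys peptides in the cytosol, had the lowest value in each comparison, at -0.41 (SE 0.21), -0.19 (SE 0.21) and -0.34 (SE 0.21). Its 3 miR-142-5p tumours did not overlap ctrl in normalised counts, as did 6.08% of all genes. The highest values were those of the trimming peptidases Lnpep at 0.01 (SE 0.19) with miR-142-5p-EVs and Tpp2 at 0.03 (SE 0.11) with miR-222-3p-EVs, and of Pdia3, an oxidoreductase of the loading complex, at 0.09 (SE 0.13) with miR-183-5p-EVs. The 3 constitutive proteasome subunits that immunoproteasome subunits replace (Psmb5, Psmb6 and Psmb7) lay between -0.09 and 0.09, from Psmb6 with miR-222-3p-EVs (SE 0.11) to Psmb6 with miR-142-5p-EVs (SE 0.11). The extremes with miR-183-5p-EVs were Psmb5 at -0.04 (SE 0.20) and Psmb7 at 0.06 (SE 0.14), and those of the remaining comparisons were Psmb7 at -0.07 (SE 0.14) with miR-142-5p-EVs and Psmb5 at -0.06 (SE 0.20) with miR-222-3p-EVs.

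Of the 19 regulators of class I transcription, 0 were called and the medians were 0.03, -0.02 and -0.02. Socs1, an inhibitor of interferon signalling, had the lowest value in each comparison, at -0.41, -0.50 and -0.52 (SE 0.35 each). The highest were Rfxank, a subunit of the RFX complex, at 0.24 (SE 0.17) and 0.21 (SE 0.17) in the first and the next comparison, and Ifng, the interferon-gamma gene, at 0.51 (SE 0.45) with miR-222-3p-EVs. Ifng itself was low throughout, at 1.82 to 6.20 TPM.

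Of the 18 interferon response genes, which share the upstream signal with class I, 0 were called. With miR-142-5p-EVs all 18 were below ctrl, with a median of -0.35. With miR-183-5p-EVs 11 were, with a median of -0.08, and with miR-222-3p-EVs 17 were, with a median of -0.25. Over all genes tested the shares below ctrl were 51.2%, 52.7% and 52.0%. The 18 genes share the same ctrl tumours, so their signs are not independent. Without ctrl tumour 2 the counts were 12, 5 and 10 of 18 and the medians -0.06, 0.13 and -0.02. Without ctrl tumour 1 the medians were -0.41, -0.14 and -0.30, and without ctrl tumour 3 -0.54, -0.26 and -0.44. Among the ctrl tumours, only leaving out tumour 2 raised the medians. In normalised counts 3 of the 18 genes did not overlap ctrl with miR-142-5p-EVs (6.08% of all genes), and 0 in either other comparison. By TPM, Gbp2, Gbp3, Gbp4 and Iigp1 were higher in every ctrl tumour than in any miR-142-5p tumour, while the other genes of the list overlapped. The share of all genes without overlap was not computed by TPM, so this is a description only. Ctrl tumour 2 had the highest Irf1 of the 12 (382 TPM, against 206 to 331). The extremes were Ido1, a tryptophan-degrading enzyme, at -0.62 (SE 0.50) and -0.52 (SE 0.50) in the first and last comparison, the GTPase Iigp1 at -0.50 (SE 0.23) with miR-183-5p-EVs, Ifit1 at -0.07 (SE 0.31) with miR-142-5p-EVs and 0.44 (SE 0.31) with miR-183-5p-EVs, and the chemokine Cxcl9 at 0.02 (SE 0.34) with miR-222-3p-EVs.

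The presentation genes varied more among tumours of the same group than between groups. Of the variation of log2(normalised count + 1) over the 12 tumours, a median of 10.8% for the 10 genes lay between groups, from 2.49% for H2-K1 to 33.8% for Nlrc5, against a median of 19.96% for the 11542 genes with a mean normalised count of at least 100. The SD within groups had a median of 0.22 for the 10 genes and 0.19 for those genes. Each tumour was placed by the mean of the 10 genes after scaling each gene to its own mean and SD. The highest were ctrl tumour 2 at 0.94, miR-142-5p tumour 1 at 0.92, ctrl tumour 1 at 0.87, miR-183-5p tumour 2 at 0.78 and miR-222-3p tumour 2 at 0.73. The lowest were miR-222-3p tumour 1 at -1.36, ctrl tumour 3 at -0.98 and miR-142-5p tumour 3 at -0.94. Each group therefore held a tumour near the top, and ctrl, miR-142-5p and miR-222-3p each held 1 of the 3 lowest. In miR-222-3p tumour 1 and in ctrl tumour 3, 9 of the 10 genes were each among their 3 lowest tumours.

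**Figure D4:**
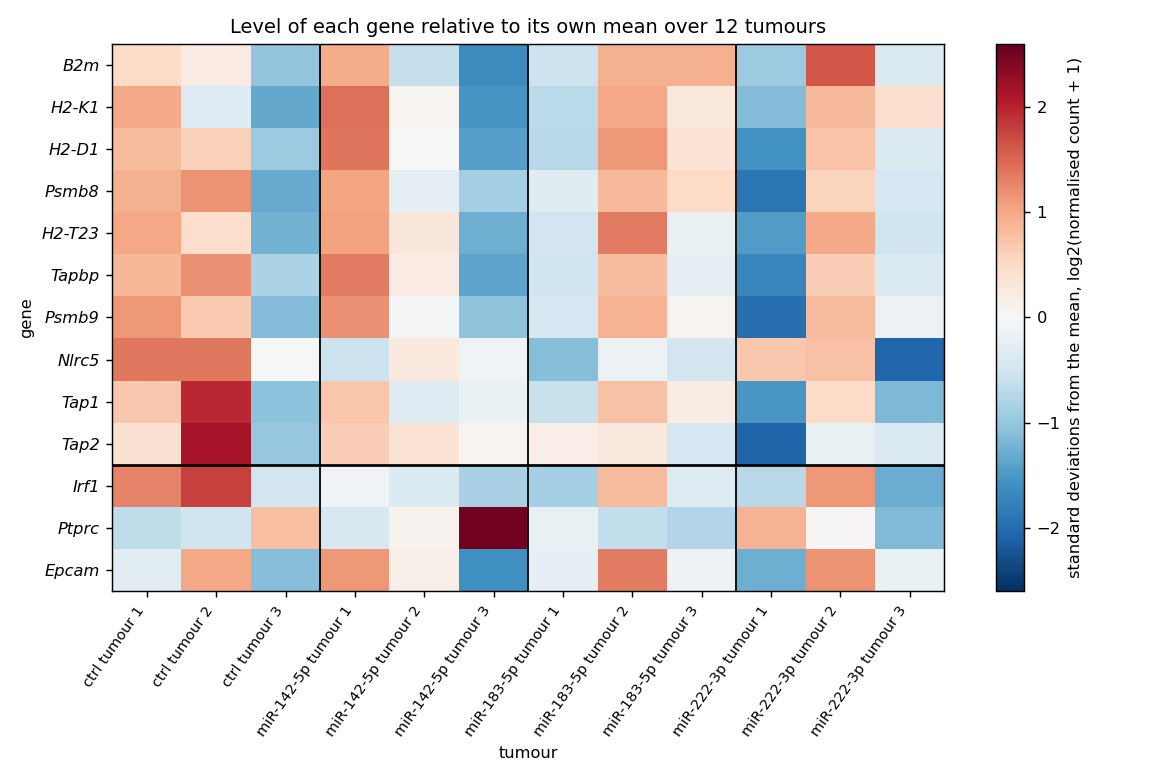
Level of the 10 genes in each tumour (x axis), in SDs from the gene's mean over 12 tumours on the log2(normalised count + 1) scale (colour), with Irf1, Ptprc and Epcam below the line. High and low tumours occur within each group, from a mean of 0.94 in ctrl tumour 2 to -1.36 in miR-222-3p tumour 1, and the row of Nlrc5 follows the others least.

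The genes moved together from tumour to tumour, with 1 exception. The Pearson correlation of each gene with the mean of the other 9 over the 12 tumours was 0.96 to 0.97 for H2-D1, Tapbp, Psmb8 and Psmb9, 0.95 for H2-T23, 0.86 for Tap1, 0.80 for B2m, 0.78 for H2-K1 and 0.67 for Tap2. It was 0.23 for Nlrc5. These values are a description, since the points share library depth and composition. In miR-222-3p tumour 1, where Tap2 and Psmb9 were at their lowest, Nlrc5 was at 195 TPM, a level exceeded only in ctrl tumour 2. By normalised count, the scale of these correlations, that tumour ranked 4 of 12 for Nlrc5.

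Outside the 10 genes, the 5 most like their mean among 11532 genes with a mean normalised count of at least 100 were Psme2 (r = 0.96), Ptma (0.95), the pseudogene Gm18853 (0.94), Psma7 (0.94) and Psme1 (0.93), over 12 tumours. Psme1 and Psme2 encode the PA28 activator that opens the proteasome and Psma7 a subunit of its core, while Ptma encodes prothymosin alpha. Psme2 was at 805, 847 and 704 TPM in ctrl, at 767, 693 and 683 with miR-142-5p-EVs, at 689.6, 872 and 783 with miR-183-5p-EVs and at 631, 813 and 642 with miR-222-3p-EVs. It was lowest in miR-222-3p tumour 1, as were Psmb8, Psmb9, H2-D1, H2-T23, Tapbp and Tap2 by TPM. Psmb10, the third immunoproteasome subunit, ranked 11 (r = 0.90). The carcinoma markers Epcam, Krt18 and Krt8 ranked 36 (r = 0.87), 130 (r = 0.82) and 602 (r = 0.68).

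To relate the genes to the class I transactivator and to the leukocyte marker Ptprc, correlations over the 12 tumours were computed on log2(normalised count + 1). There were 10 with Ptprc and 9 with Nlrc5, each with a two-sided permutation test and adjustment over a family of 29 relations. The other leukocyte markers, Laptm5 and Coro1a, were not used, so the relations are with Ptprc and not with leukocyte content as such. Of the relations with Ptprc 1 passed, and of those with Nlrc5 0 passed. H2-K1 was lower in tumours with more Ptprc (r = -0.74, permutation p = 0.00243, adjusted p = 0.0352, n = 12, with Spearman rho = -0.66, permutation p = 0.0215, adjusted p = 0.302). Without miR-142-5p tumour 3 and miR-222-3p tumour 1 r was -0.56 and the relation did not pass. A further 6 genes had r between -0.62 and -0.69 with Ptprc (H2-D1, B2m, Psmb9, Tapbp, Psmb8 and H2-T23), with adjusted p of 0.0735 to 0.0831 by permutation. Tap1 and Tap2 were at -0.33 and -0.32 and Nlrc5 at 0.19. Within the 8 libraries of the larger set the r of H2-K1 was -0.76, that of B2m -0.86 and that of Tapbp -0.84, and 6 of the relations with Ptprc passed by permutation. After subtracting group means r for H2-K1 was -0.83, and 5 of the relations with Ptprc passed. That permutation took the 12 values as independent although group means had been removed. Its p-values therefore tend to be too small, and no conclusion is drawn from that count. Nlrc5 did not pass with any of the other 9 genes (r from -0.03 for H2-K1 to 0.49 for Tap1, lowest permutation p = 0.106, lowest adjusted p = 0.236).

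**Figure D5:**
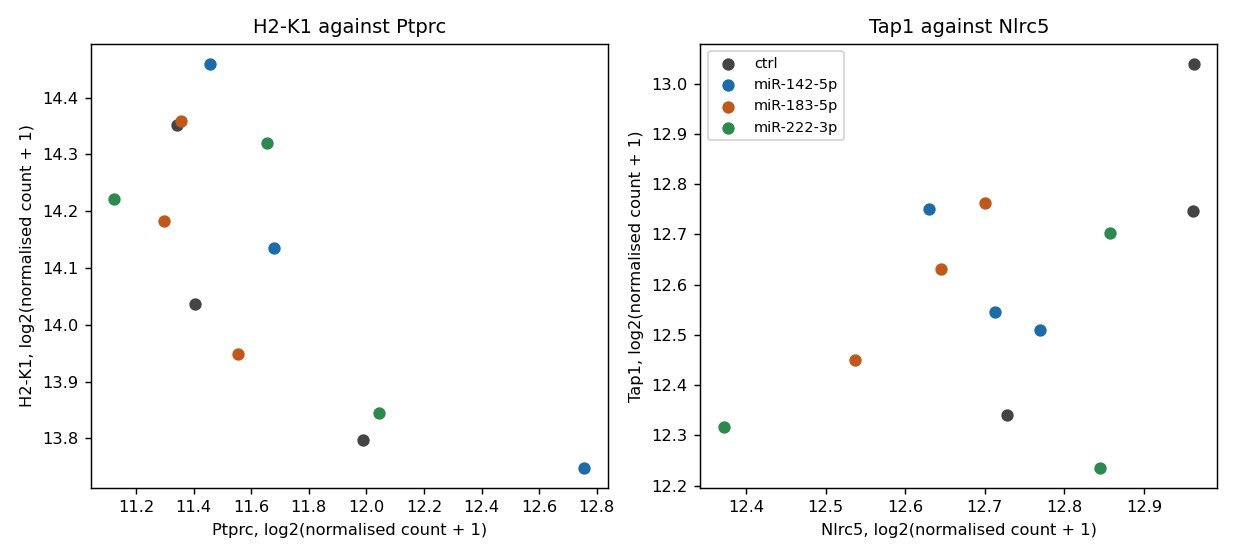
H2-K1 against Ptprc (left) and Tap1 against Nlrc5 (right), all axes log2(normalised count + 1), with 1 point per tumour coloured by group. H2-K1 falls as Ptprc rises (r = -0.74), Tap1 and Nlrc5 give the highest r among the relations with Nlrc5 (r = 0.49, which did not pass), and the groups are interspersed in the left plot.

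The markers of other cells stood beside these levels as follows. The 3 leukocyte markers summed to 359 to 404 TPM in ctrl, 392 to 801 with miR-142-5p-EVs, 310 to 359 with miR-183-5p-EVs and 335 to 456 with miR-222-3p-EVs. The 4 carcinoma markers summed to 1406 to 1848 TPM in ctrl, 1263 to 1851 with miR-142-5p-EVs, 1435 to 1611 with miR-183-5p-EVs and 1342 to 1458 with miR-222-3p-EVs. No gene of either list was at 0 in the tumours. Of the tumours with the 3 lowest means of the presentation genes, miR-222-3p tumour 1, ctrl tumour 3 and miR-142-5p tumour 3 had Epcam at 75.4, 78.0 and 69.7 TPM and Ptprc at 62.3, 59.6 and 102 TPM. These were the 3 lowest Epcam and the 3 highest Ptprc values of the 12 tumours. In the same order Krt18 was at 715, 731 and 632 TPM, also its 3 lowest values. Other markers of the same cells followed only in part. Krt8 was at 500, 543 and 513 TPM (range 481 to 732) and Cdh1 at 51.1, 53.5 and 48.2 TPM (range 45.0 to 71.9). Laptm5 was at 197, 159.5 and 269 TPM (range 132 to 269) and Coro1a at 197, 184.4 and 430 TPM (range 143.1 to 430). The part of cell composition in the levels of the presentation genes was not tested.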

How the data were processed

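Polyadenylated RNA of 12 4T1 tumours (4 groups of 3, grouped by the sample labels) was sequenced by the authors with a strand-specific kit and quantified with Salmon on GRCm38. The deposited tables hold an estimated count (Salmon's expected count, often not whole) and a TPM, scaled by the authors to a fixed sum per library, for each of 118783 transcripts. The methods and the tables name different Ensembl releases, so identifiers were matched without version to GENCODE M21 (116710 transcripts, 98.3%). Unmatched transcripts held 0.633% to 0.671% of each library's reads and were left out.

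Estimated counts and TPM were summed per gene, counts were rounded, and the TPM-weighted effective length entered as an offset. Genes with at least 10 counts in at least 3 libraries were tested with DESeq2 1.42.0 (Wald test, 12 tumours in 1 fit, group as the factor, R 4.3.3), with Benjamini-Hochberg adjustment over all genes and a threshold of 0.05. The fits were tested on counts simulated for miR-142-5p against ctrl, with log2 changes of 1 and 2 in 200 of the 15485 genes. DESeq2 recovered 90% and 98% of these, with 39 false calls and 8 calls in a contrast left unchanged. The edgeR fit recovered 80% and 97%, with 9 false calls. Changes as small as those fitted for the 10 genes were not simulated. Estimated reads per library were 20285968 to 27021401, and each of the 10 genes had at least 2785 reads in every library, so counting error was small beside the spread between tumours. P-values measure the spread between these tumours.

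The 10 genes, the lists and the rule for named genes were chosen with earlier results of these data known. The text names all 10 genes, the highest and lowest gene of each pathway list against ctrl, and the 5 genes most like the mean of the 10 (Pearson r, mean normalised count of at least 100). Alternatives were edgeR 4.0.16, limma 3.58.1 on log2(TPM + 1) and log2(TPM + 0.1), TMM factors, no count filter, at least 50 counts in every library, no length offset, the 2 groups alone, the replicate number as a block, protein-coding genes only, a threshold of 0.1 and each tumour left out. Correlations used 100000 permutations, adjusted over 29 relations, of which 10 are not reported here. Sequences are RefSeq's on GRCm38.p6, or GENCODE M21 transcripts on GRCm38.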

Additional observations from a re-analysis of the deposited data

How the results depend on the processing

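In each of the 6 comparisons, 0 of the 10 genes were called under every alternative that could be run (96 fits over all 6, and the threshold of 0.1), with a lowest adjusted p of 0.483 (B2m, miR-183-5p against miR-142-5p without miR-142-5p tumour 1). The largest change in any of them was -0.47 for Tap1 with miR-222-3p-EVs without ctrl tumour 3. The sign of an uncalled log2 fold change against ctrl turned in 18 of 160 values for miR-142-5p, in 19 for miR-183-5p and in 8 for miR-222-3p. Genes of the pathway and marker lists called against ctrl numbered 0 with all tumours, but 0 to 4 for miR-142-5p and 0 to 1 for miR-183-5p when 1 tumour was left out. Without miR-142-5p tumour 1 these were Cd79a, Cd79b, Cd3d and Ccr7, without miR-142-5p tumour 2 Cd79a and Cd79b, and without miR-183-5p tumour 1 or 2 Ckm. None is a gene of class I presentation.

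With protein-coding transcripts only, the ctrl mean was 246 TPM for H2-K1, 1826 for H2-D1, 402 for H2-T23, 117 for Tap1, 22.4 for Tap2, 45.8 for Nlrc5, 305 for Psmb8 and 191 for Psmb9, each moved by more than the SD. Of the family of 29 relations, 2 passed with all 12 tumours, 1 on log2(TPM + 1), 6 after subtracting group means, 0 without the farthest pair of tumours and 6 within the larger library set. The count after subtracting group means may be too high, because that permutation took the 12 values as independent.

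The labels do not say whether the replicate numbers pair the tumours, and no pairing was seen. Deviations from the group mean correlated between -0.263 and 0.206 over genes for a ctrl tumour and the same-numbered tumour of another group. Over all pairs of groups the mean was -0.0445 for tumours of the same number and 0.0221 for the others. With 3 tumours per group these values cannot exclude a shared batch. With the replicate block, 0 of the 10 genes were called in each comparison. The alternative with added haplotype copies of class I genes was not run, because the tables used here name no such transcripts. Depth did not limit these genes, and 3 tumours per group limit the size of change that can be seen to the intervals given.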
